A study of Panicum virgatum with 8 samples.

Results

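The miR171 family of switchgrass was described here from the predicted hairpins that the authors deposited. A hairpin locus was taken as a member where its more abundant arm, or the arm of equal abundance, carried a miRBase name with miR171 in it. Hairpins with poor pairing were kept. The rule gave 25 of the 210 loci in the table, and these loci carried 5 distinct mature sequences. The libraries came from switchgrass (Panicum virgatum) of the genotype AP13, a tetraploid whose chromosomes come in a K and an N copy. There was 1 small RNA library for each of 8 conditions. These were Cold (4 °C for 24 h) and Control for Cold, then Drought (11 days without water), Re-water after Drought (sampled on day 12) and Control for Drought, and the tissues Leaf, Stem and Panicle. The labels call the stress and control material above ground tissue, whereas the series' design describes upper leaf blades. The table names no library and gives 1 abundance per sequence, so the libraries are taken as pooled. Conditions could therefore not be compared, no replicate error exists for any abundance, and the depth behind the values is unknown.

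MicroRNAs of the miR171 family guide the cleavage of mRNAs for GRAS transcription factors of the HAIRY MERISTEM group, which keep shoot meristems undifferentiated. In Arabidopsis these factors also act on chlorophyll synthesis and shoot branching, and in Medicago truncatula a shifted form, miR171h, acts on the GRAS gene NSP2. A miRNA is cut from a hairpin as a duplex with the strand from the opposite arm, the miRNA*. The miRNA of the canonical miR171 hairpin lies on the 3′ arm.

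The 5 mature sequences are shown because they differ in register, that is, in where the cut falls along a shared stretch. They are written 5′ to 3′ with the seed, bases 2 to 8, in capitals, and with T for U as in the table. Each name is that of the miRBase entry, from another plant, that the sequence matched.
ata-miR171a-3p: tGAGCCGAaccaatatcactc
vvi-miR171j: tGATTGAGccgtgccaatatc
mdm-miR171b: tTGAGCCGcgtcaatatctcc
ata-miR171c-3p: tTGAGCCGtgccaatatcacg
atr-miR171c: tGATTGAGccgcgccaatatc

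All 5 forms were 21 nt long and began with T. They shared a 17-nt core, made of the 7 nt TGAGCCG, 3 variable nucleotides and the 7 nt CAATATC. Neither 7-nt block occurred in any of the 55 other miRNA sequences of the table (0%), searched on the listed strand only. The family was divided by its seeds. The seed GATTGAG belonged to vvi-miR171j and atr-miR171c, with 16 loci between them. The seed TGAGCCG belonged to mdm-miR171b and ata-miR171c-3p, with 3 loci, and GAGCCGA belonged to ata-miR171a-3p alone, with 6 loci. None of these seeds was found in another miRNA sequence of the table.

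The registers were set apart by how many bases preceded the core. There were 4 such bases in vvi-miR171j and atr-miR171c, which ended with the core. There was 1 in mdm-miR171b and ata-miR171c-3p, each with 3 bases after the core. In ata-miR171a-3p the core began at the first base and 4 bases followed it. Plant miRNAs direct cleavage opposite the bond between their bases 10 and 11. Those bases were core positions 6 and 7 in vvi-miR171j and atr-miR171c, 9 and 10 in mdm-miR171b and ata-miR171c-3p, and 10 and 11 in ata-miR171a-3p. The target sites of these forms were not analysed here.

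Within a register the forms differed at few bases, counted here from 1 at the 5′ end of the first-named form. Between vvi-miR171j and atr-miR171c there was the single substitution T12C. Between mdm-miR171b and ata-miR171c-3p there were 4, namely C9T, T11C, T19A and C21G. Across registers, vvi-miR171j and ata-miR171c-3p were identical over all 18 nt that overlapped when shifted by 3 nt. The sequence ata-miR171a-3p differed from vvi-miR171j at A8T and A9G over the 17 nt that overlapped when shifted by 4 nt. Both of these substitutions lie among the 3 variable nucleotides.

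The listed abundances spanned a wide range for sequences this alike. The most abundant member was ata-miR171a-3p at 1362, which was 51.2% of the family's summed abundance and rank 14 of the 60 miRNA sequences in the table. Next was vvi-miR171j at 813 (30.5% of the family, rank 18). The apple-named form mdm-miR171b stood at 404 (15.2%, rank 24). The sequence ata-miR171c-3p had 70 (2.63%, rank 34) and atr-miR171c had 13 (0.488%, rank 45). The table does not state the unit of these abundances. With 1 pooled value per sequence, no difference between them could be tested.

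**Figure D1:**
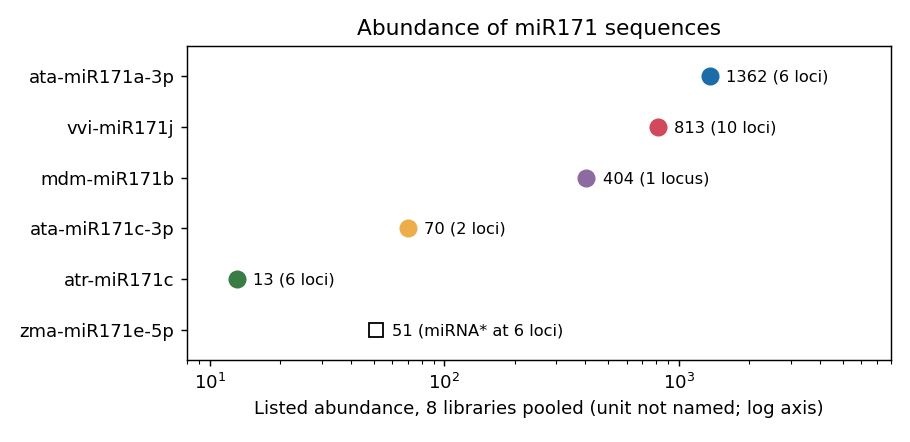
Listed abundance of the 5 miR171 miRNA sequences (circles, with their number of loci) and of the named miRNA* zma-miR171e-5p (open square), on a log axis in the deposited unit, pooled over the 8 libraries. The circles run from 1362 for ata-miR171a-3p to 13 for atr-miR171c, and ata-miR171a-3p and vvi-miR171j (813) lie farthest to the right.

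Abundance and number of loci did not follow the same order in this family. The sequence vvi-miR171j had 10 loci, ata-miR171a-3p and atr-miR171c had 6 each, ata-miR171c-3p had 2 and mdm-miR171b had 1. Forms with 6 loci each, at different positions, thus had listed values of 1362 (ata-miR171a-3p) and 13 (atr-miR171c). Loci that share a mature sequence share its abundance, so the output of single hairpins was not measured. By seed, GAGCCGA had a summed abundance of 1362, GATTGAG 826 and TGAGCCG 474.

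Set beside the rest of the table, miR171 ranked higher by its number of loci than by its abundance. With miR156 at 26 loci (rank 1) and miR166 at 19 (rank 4), the 25 loci of miR171 were rank 2 of 29 families. Its summed abundance of 2662 was rank 9 and made up 0.947% of the 281001 summed over all 60 sequences. The families miR156 and miR166, which target SPL and class III HD-ZIP transcription factors, had summed abundances of 3469 and 193400. The median abundance of the 55 sequences outside miR171 was 117. These ranks are descriptions and were not tested, because sequences and loci are not replicates.

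The miRNA* was listed with an abundance at 6 of the 25 loci, all of them hairpins of vvi-miR171j on the K and N copies of chromosome 9. It was zma-miR171e-5p at 51 in each case, so that the miRNA was listed at 15.9 times its miRNA*. The miRNA value is shared by all 10 loci of vvi-miR171j, so this ratio does not describe single hairpins. The pair is shown because it is the only duplex of the family with a value on both strands. Capitals mark the bases that face each other without pairing.
vvi-miR171j: tgaTtgagccgTgccaatatc
zma-miR171e-5p: tgttggcTcggctcaCtcaga

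With 2-nt 3′ overhangs, 19 nt of each strand faced the other. Bases 4 and 12 of vvi-miR171j were unpaired against bases 16 and 8 of zma-miR171e-5p, and base 18 formed a G:U pair. At the other 19 loci the miRNA* was listed at 0. In the whole table a miRNA* had an abundance of at least 1 in 300 structures, all of which gave it a miRBase name, and none of the 194 structures with a value of 0 did. A listed 0 was therefore not read as absence of the strand. A miRNA* of at least 1 was listed at 24.0% of the miR171 loci and at 46.5% of the 185 other loci, a difference that was not tested.

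Among the loci with a miRNA* sequence, the arm of the miRNA was set beside the quality of the pairing. The miRNA lay on the 3′ arm at 21 loci and on the 5′ arm at 4. At 20 of those 21 loci a miRNA* was given, with 0 to 4 mismatch positions (median 2). The remaining 3′-arm locus, of ata-miR171a-3p on Chr01K, had no miRNA* sequence and was listed with 25 mismatch positions. Its arm thus rests on the listed positions of an unusable strand, though it is counted as 3′ here. The 4 loci on the 5′ arm had 6 to 9 mismatch positions (median 8), and the authors called them miRNA-like or bad seq. Their arm was read from the position of the same poorly paired strand, so arm and pairing were not independent. The precursors of the 4 miR171 loci on the 5′ arm were 213 to 291 nt long, against 96 to 165 nt for the miR171 loci on the 3′ arm. Pairing and length were not split by arm for the other families. The 3′ arm held the miRNA at 84.0% of the miR171 loci and at 40.5% of the other loci. For miR166, whose miRNA is also a 3′ strand, this share was 78.9%, and for miR156, a 5′ strand, it was 11.5%.

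**Figure D2:**
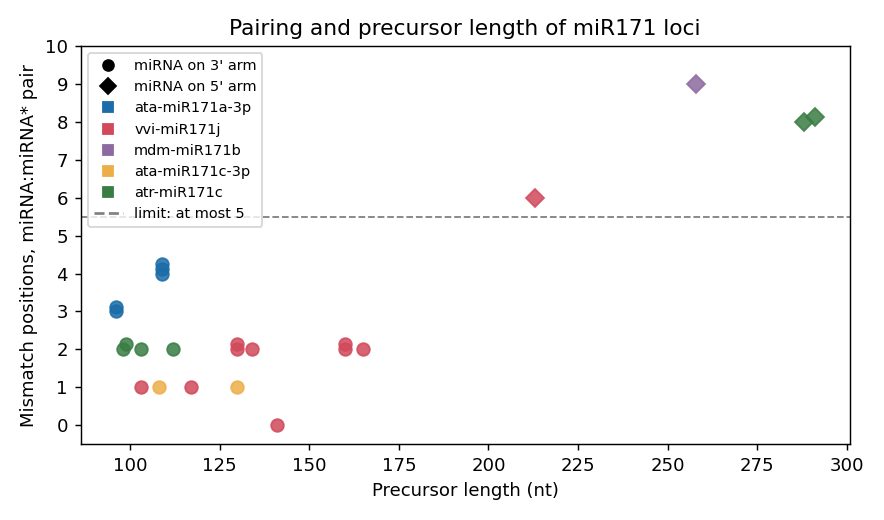
Mismatch positions in the miRNA:miRNA* pair (vertical axis) against precursor length in nt (horizontal axis) for the 24 miR171 loci with a listed miRNA*, with overlapping points raised slightly. Circles (miRNA on the 3′ arm) lie at 96 to 165 nt with 0 to 4 mismatch positions, and diamonds (5′ arm) at 213 to 291 nt with 6 to 9.

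Under the study's limits on length and pairing alone, 20 of the 25 loci qualified. Allowed were a miRNA of 20 to 24 nt and a precursor shorter than 300 nt. The pair could have at most 5 mismatch positions and at most 3 bulged nt. The study's further limits, on abundance, genome hits, strand bias and abundance bias, were not applied in this count. These 20 were on the 3′ arm. Among them 1 locus had 0 mismatch positions, 4 had 1, 10 had 2, 2 had 3 and 3 had 4. The share within the limits was 80.0% for miR171 and 89.2% for the other loci, and this difference was not tested.

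The 5 loci outside the limits were of 4 different forms. The single locus of mdm-miR171b (Chr09K from 10793890 to 10794147, minus strand, in version 4.1 of the genome, as are all positions here) had 9 mismatch positions, and the authors' call was bad seq. The abundance of 404 listed for mdm-miR171b thus had no well-paired hairpin behind it. The atr-miR171c loci on Chr07K (59565973 to 59566263) and Chr07N (57727112 to 57727399) had 8 mismatch positions each. Their energies were -139.1 kcal/mol on K and -139.8 kcal/mol on N, and those of the 4 other atr-miR171c loci lay between -55.4 and -45.6 kcal/mol. Their hairpins were also longer, 280 nt against 92 to 100 nt. Per nucleotide they had -0.497 and -0.499 kcal/mol, within the range of -0.566 to -0.496 kcal/mol of the others. The strands listed opposite the miRNA at these Chr07 loci were 17 nt long and differed at 1 base, C17T, with the K strand first. The vvi-miR171j locus on Chr02N (52140581 to 52140793) had 6 mismatch positions. It was the only member on either copy of chromosome 2. At the fifth locus, of ata-miR171a-3p on Chr01K (69107376 to 69107475), the table marked the opposite strand as too long and gave no sequence.

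The 15 well-paired loci whose duplex was of 21 nt on both strands were examined base by base, again with 2-nt 3′ overhangs. The number of mismatches found equalled the deposited one at 14 of them. At the remaining locus, vvi-miR171j on Chr09N from 10996302 to 10996418, the table listed 1 mismatch position where 0 were found and 3 G:U pairs stood in the duplex. Further duplexes are shown because their pairing differs from that of the duplex with zma-miR171e-5p. They carry vvi-miR171j, its T12C variant atr-miR171c or ata-miR171c-3p, with capitals as before.
vvi-miR171j, Chr07N: tgattgagccgtgccaatatc
miRNA*, Chr07N: tgttggtgcggttcaatcaga
atr-miR171c, Chr01K and Chr01N: TgattgagccGcgccaatatc
miRNA*, Chr01K and Chr01N: tattggcgAggttcaatcCga
ata-miR171c-3p, Chr06N: ttgagccgtgccaatatcAcg
miRNA*, Chr06N: Gggtgttggcgcggttcaatt

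On Chr07N (64199254 to 64199394) vvi-miR171j had 0 mismatches and 4 G:U pairs. All 4 well-paired atr-miR171c loci had their mismatches at bases 1 and 11 of the miRNA. The miRNA* of the chromosome 4 pair of atr-miR171c differed from that of the chromosome 1 pair by the single substitution C7T, counted from the 5′ end of the chromosome 1 strand. Both ata-miR171c-3p loci had a single mismatch, at base 19. The miRNA* of vvi-miR171j took 5 different sequences over its 10 loci, and 1 of these, zma-miR171e-5p, was found at 6 loci.

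The loci were spread almost evenly over the subgenomes, with 12 on K chromosomes and 13 on N chromosomes. The 185 other loci had 86 on K, 92 on N and 7 on unplaced scaffolds. By form, vvi-miR171j had 5 on K and 5 on N, atr-miR171c 3 and 3, ata-miR171c-3p 1 and 1, and ata-miR171a-3p 2 and 4. Members lay on chromosomes 1, 2, 4, 6, 7 and 9. Chromosome 9 held 5 loci on K and 3 on N, chromosome 7 held 3 on each copy, and chromosome 1 held 2 on K and 4 on N.

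**Figure D3:**
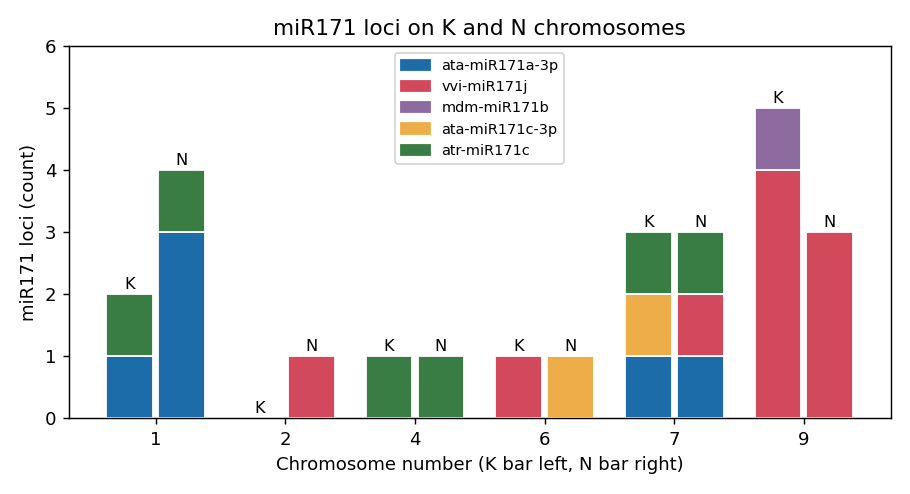
Number of miR171 loci on the K (left bar) and N (right bar) copy of each chromosome that holds any, coloured by mature form. Chromosome 9 has 5 loci on K and 3 on N, nearly all of vvi-miR171j, and chromosome 1 has 2 on K and 4 on N.

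Several loci were repeated along a chromosome. On Chr09K, vvi-miR171j lay at 85285329 to 85285458 and at 85289484 to 85289613, 4025 bp apart on the same strand. A second Chr09K pair lay at 51290750 to 51290909 and 51459118 to 51459277, 168208 bp apart and also on the same strand, and both of its hairpins had an energy of -77.3 kcal/mol. Chr09N held 1 hairpin with the same miRNA and miRNA* from 81578467 to 81578631 (-75.6 kcal/mol) and another from 120531920 to 120532053 (-64.4 kcal/mol). For ata-miR171a-3p the repeats were on Chr01N. Its loci from 81109679 to 81109787 and from 81141283 to 81141391 were 31495 bp apart on the plus strand, and the remaining one lay on the minus strand from 78843519 to 78843627. These Chr01N loci shared a miRNA* of 23 nt, had 4 mismatch positions each, and had energies of -63.2, -59.5 and -58.6 kcal/mol. The lone Chr01K locus of ata-miR171a-3p, with no usable miRNA*, had -47.6 kcal/mol.

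Matched copies, with the same miRNA and miRNA* at 1 locus on each of K and N of a chromosome, were found in 3 cases. For atr-miR171c on chromosome 1 the hairpin energy was -54.4 kcal/mol on K (9263822 to 9263920) and -55.4 kcal/mol on N (5840474 to 5840576). For atr-miR171c on chromosome 4 it was -45.6 kcal/mol on K (55609599 to 55609710) and -47.5 kcal/mol on N (45445703 to 45445800). For ata-miR171a-3p on chromosome 7 it was -41.6 kcal/mol on K (63636814 to 63636909) and -41.4 kcal/mol on N (46492805 to 46492900). K minus N averaged 0.92 ± 1.04 kcal/mol (SD, n = 3 pairs), which is smaller than its own spread, and the sign was not the same in every pair. With 3 pairs no test was made.

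On chromosomes 6 and 7 the K and N copies carried overlapping but shifted forms. Chr06K (11316821 to 11316923) had vvi-miR171j and Chr06N (13270468 to 13270575) had ata-miR171c-3p, with hairpin energies of -72.1 and -70.9 kcal/mol. Chr07K (67731558 to 67731687) had ata-miR171c-3p and Chr07N (64199254 to 64199394) had vvi-miR171j, with -48.0 and -65.1 kcal/mol. The miRNA* strands shared a run of 17 nt on chromosome 6 and of 16 nt on chromosome 7. Which of these loci descend from a common copy was not tested. On chromosome 9, mdm-miR171b on K and vvi-miR171j on N (10996302 to 10996418) both lay on the minus strand, with starts at 10793890 and 10996302.

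Across all 25 loci the most stable structure had an energy between -139.8 and -41.4 kcal/mol. The median was -64.1 kcal/mol for miR171 and -70.4 kcal/mol for the other loci. The median precursor was 117 nt for miR171 and 139 nt for the others, and the relation of energy to length was not tested. Per nucleotide of hairpin the medians were -0.515 kcal/mol for miR171 and -0.538 kcal/mol for the others. None of these differences was tested. Within the family, vvi-miR171j had a median of -66.2 kcal/mol, ata-miR171a-3p -53.1 kcal/mol and atr-miR171c -54.9 kcal/mol. Per nucleotide, the Chr06 hairpins stood lowest, at -0.721 kcal/mol on K and -0.702 kcal/mol on N. The poorly paired loci of vvi-miR171j on Chr02N and of mdm-miR171b on Chr09K stood highest, at -0.305 and -0.308 kcal/mol.

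**Figure D4:**
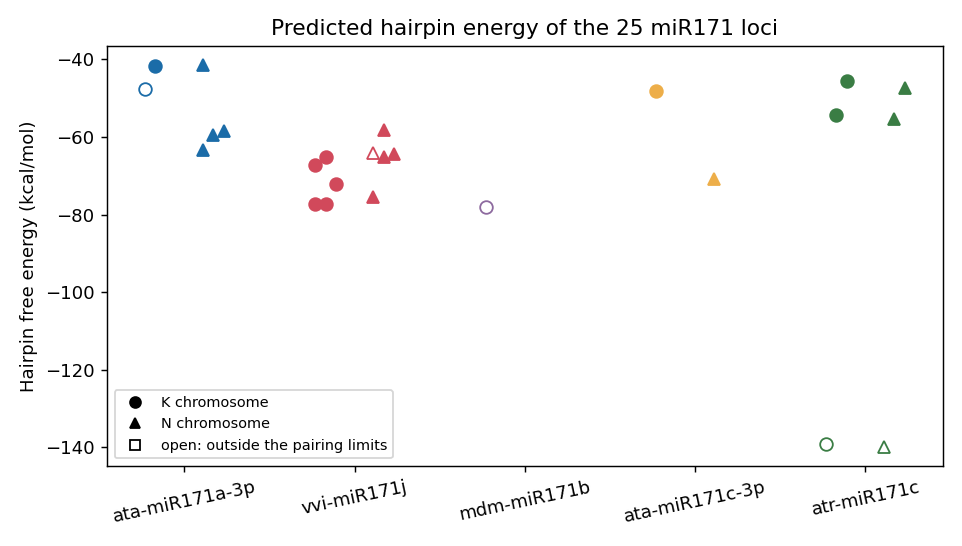
Predicted hairpin free energy in kcal/mol of each of the 25 miR171 loci by mature form, with circles for K and triangles for N chromosomes. Open symbols are loci outside the pairing limits, and the lowest are the atr-miR171c loci of chromosome 7 at -139.1 (K) and -139.8 (N).

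The distance between the arms also varied within a form. In the well-paired vvi-miR171j hairpins with zma-miR171e-5p, 38, 38 and 42 nt separated the strands at the Chr09K loci 4025 bp apart and the Chr09N locus that starts at 120531920, and 68, 68 and 73 nt at the others. The ata-miR171a-3p hairpins had 42 nt at each of the Chr01N loci and 30 nt at both chromosome 7 loci. The atr-miR171c hairpins within the limits had 34, 34, 35 and 39 nt. The authors' own call was miRNA candidate for the same number of loci, 20, as met the limits.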

How the data were processed

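Small RNA of 8 switchgrass libraries was sequenced, 1 library per condition. The authors trimmed the reads and mapped them with Bowtie (version 0.12.7 in the submitters' processing notes) to version 4.1 of the genome. They kept sequences of 20 to 24 nt that matched miRBase 21, tested pairing with modified miREAP and folded precursors with UNAFold, for which versions are not given in the sources used here. The deposited abundances were treated as a score, since their unit (reads or TP10M) is not settled. The deposited hairpin energies are in kcal/mol.

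From the 494 structures, those with a miRNA abundance at or above that of the miRNA* were kept, and miR171 was read from the miRNA name. This gave 41 structures, and 9 structures of the same loci that listed the arms the other way round were dropped. Energy was taken from the most stable structure of a locus and pairing from the best-paired one. The arm was read from the listed strand positions. Every member was named or counted, with miR156, miR166 and the sequences nearest to the most abundant form for comparison. The neighbouring miR394 loci and the comparisons of single duplexes were chosen after values were seen. The members and lists were chosen with earlier results of these data known. No test was made, since values are pooled and loci are not replicates. The member rule was run on simulated data whose true members were set by the same conditions. This checked only that the code applies the rule. Python 3.11.15, numpy 2.4.6, pandas 2.3.3 and matplotlib 3.10.9 were used.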

Additional observations from a re-analysis of the deposited data

How the results depend on the processing

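Of 39 values recomputed under an alternative, 35 stayed within 1.5 times the main count or sum, or within 1 SD for energies, and 4 moved. With a miRNA* abundance of at least 1 the family had 6 loci instead of 25, 1 mature sequence instead of 5, a summed abundance of 813 instead of 2662, and 4 loci on K chromosomes instead of 12. This follows from the construction of that alternative, which leaves only hairpins whose miRNA* has a miRBase name. The stated pairing limits and the authors' miRNA candidate calls each gave 20 loci, 4 sequences, a summed abundance of 2258, 9 loci on K chromosomes and a median energy of -61.4 kcal/mol. No member overlapped another, lay on a scaffold or had an abundance under 10, so those alternatives could change nothing. The count of loci with a miRNA* of at least 1 was also fixed under the alternative that requires it. The 35 values that stayed thus include many that could not move, and are no measure of robustness. No paired analysis was possible because the table pools the libraries, with 1 library a condition. The unknown unit and depth leave the precision of every abundance open, the low value of 13 for atr-miR171c included.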

Other observations

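Sequences outside the family were aligned with ata-miR171a-3p only, its most abundant form. The best ungapped alignment had 10 identical bases, reached by 5 sequences: ata-miR399a-3p over 19 nt aligned, bdi-miR319b-3p over 20 nt, and atr-miR535, lus-miR166b and sly-miR166c-3p over 21 nt each.

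The nearest locus of another family to 3 of the 4 Chr01 loci of ata-miR171a-3p was ata-miR394-5p, a miRNA that targets an F-box gene, on the same strand. The gap was 49354 bp on Chr01K, and 288329 bp and 319933 bp on Chr01N. The remaining Chr01N locus, on the minus strand from 78843519, had ata-miR166d-3p as its nearest, at 1582982 bp on the other strand. The chromosome 4 loci of atr-miR171c lay 561759 bp (K) and 1161692 bp (N) from sbi-miR156e on the same strand. The mdm-miR171b locus on Chr09K had ata-miR166d-3p as the nearest other locus, 927213 bp away at a higher position on the same strand. For the vvi-miR171j locus on Chr09N that starts at 10996302, ata-miR166d-3p was also nearest. It lay 590988 bp away at a lower position on the other strand.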
